A study of Mus musculus with 20 samples.

Results

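The genes described here are 10 immediate early and AP-1 genes of the mouse, Fos, Fosb, Jun, Junb, Jund, Egr1, Egr2, Atf3, Ier2 and Dusp1. They were chosen by symbol and are 10 of 21315 gene symbols listed, and all 10 were tested in every comparison. The data are 20 bulk RNA-seq libraries of microglia sorted from the brains of C57BL/6 mice at 9 months of age, a study of the complement receptor C3aR in amyloid pathology.

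In C3aR+ WT and C3aR+ APP-KI (n = 3 each), the mice carried a Td-tomato reporter allele of C3ar1, the gene of C3aR, and only cells positive for the reporter were collected. The other 14 libraries held sorted microglia without selection on C3aR, from WT, C3aRKO and APP-KI mice (n = 3 each) and APP-KI;C3aRKO mice (n = 5). APP-KI mice carry a humanized App gene with familial mutations at the place of their own and form amyloid plaques, and C3aRKO mice lack C3ar1. A number after the name of a group is the replicate number. Replicates are separate samples by their labels, which do not say that each came from its own animal, so p-values measure the spread between these samples.

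Immediate early genes are transcribed within minutes of a stimulus, without new protein being needed. Kinases of the MAPK family act on factors such as SRF, its Elk partners and CREB, which bind the promoters of these genes, and several of the products are themselves transcription factors. AP-1 is a dimer of Fos, Jun and related proteins, EGR proteins are zinc finger factors, and DUSP1 removes phosphate from MAPKs and so ends the signal. Tissue dissociation at warm temperature is a known stimulus of these genes. Here the brains were minced, digested with papain and DNase, triturated, cleared on Percoll and sorted, and no inhibitor of transcription or translation is named for these steps. Every library went through them, so RNA made during isolation and RNA present in the brain cannot be told apart in any of these values.

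Recovered reads per library ran from 19962604 to 30388941 in C3aR+ WT, from 13939559 to 23086997 in C3aR+ APP-KI, from 67797819 to 76608464 in WT, from 61843354 to 69483570 in C3aRKO, from 44418969 to 55722037 in APP-KI and from 42239056 to 69658208 in APP-KI;C3aRKO. The deposited value of a gene is its reads divided by the 75th percentile of the reads per gene in that library, without division by gene length. All values were multiplied by 35.2, the same number for every library, and the product is called the scaled value. Between 0.0132 and 0.0786 of a scaled value is 1 read. By their library numbers the libraries fall into 3 series. All C3aR+ libraries form the first of them, and the other 14 are divided over the other 2, with all 4 genotypes in each.

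Of the 14 libraries without selection on C3aR, 4 stood apart by the number of genes with at least 10 reads. These were APP-KI;C3aRKO 1 (11134 genes), C3aRKO 1 (11739), C3aRKO 2 (11808) and APP-KI 4 (11934), where 9 others had between 13869 and 14981. APP-KI 5 stood apart on the other side with 20733. Results for these genotypes are therefore also given without these libraries. The 4 and APP-KI 5 all belong to the library series of WT 4. Without them only WT 4 and APP-KI;C3aRKO 2 remain of that series. Leaving out the 4 leaves C3aRKO 3 as the only C3aRKO library, and leaving out APP-KI 5 as well leaves APP-KI 6 as the only APP-KI library. A fit with such a group takes its spread from the other groups, so its values are given without a p-value and test nothing about that group. The markers of microglia, 16 genes of which Csf1r was the most abundant, summed to a scaled value of 14369.6 in APP-KI;C3aRKO 1, 34851 in C3aRKO 1, 23778 in C3aRKO 2 and 17344 in APP-KI 4, and to between 28858 and 43584 in the other 10. In bulk RNA, fewer cells of a type and less RNA per cell cannot be told apart.

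C3ar1 was examined first as the gene knocked out. Its scaled value was 276, 329.9 and 340.0 in WT, 165, 315 and 388 in APP-KI, 68.1, 39.9 and 65.7 in C3aRKO and 80.4, 77.4, 69.4, 75.9 and 61.9 in APP-KI;C3aRKO, so the knockouts lay below the rest without overlap. It was 71.0, 81.2 and 37.6 in C3aR+ WT and 383, 251 and 201 in C3aR+ APP-KI, and the C3aR+ WT values thus lay at the level of the knockouts. The C3aR+ groups differed in C3ar1 by a log2 fold change of 2.14 (limma, adjusted p = 0.001). Whether the reporter allele lowers the reads on C3ar1 cannot be read from these data, and C3aR+ names the sort and not the level of C3ar1.

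Among the 10 genes, Jun, the main DNA-binding partner in AP-1, had the highest level for its length, with a mean of 331 scaled units per kb of exon over the 20 libraries (SD 142). It lay above Fos, its usual partner, in 20 of 20 libraries. The order differed between conditions. In C3aR+ APP-KI Atf3, at 254 per kb, lay above Jun, at 229, in 3 of 3 libraries, and Egr2, at 20.8, above Fosb, at 18.7, in 2 of 3. The mean of Junb was above that of Fos in C3aR+ APP-KI (144 and 138) and in APP-KI (133 and 129). In C3aR+ WT the mean of Atf3, 72.2, was below those of Junb (114), Jund (112) and Dusp1 (81.4). Atf3 lay above Junb in 7 of the 20 libraries. Over the 20 libraries Fos followed Jun at 170.2 (SD 54.3), and Atf3, a stress-induced repressor and AP-1 partner, was at 157 (SD 110.4). Junb was at 127 (SD 29.8) and Jund, the Jun protein least dependent on stimulation, at 98.0 (SD 26.0). Dusp1, the MAPK phosphatase, was at 68.9 (SD 25.1), Egr1 at 48.0 (SD 17.6), Ier2, a small nuclear regulator, at 36.7 (SD 9.20), Fosb, a partner of Jun like Fos, at 24.0 (SD 10.9) and Egr2 at 12.1 (SD 7.79). Between Fos and Atf3, Atf3 and Junb, Junb and Jund, Dusp1 and Egr1, and Egr1 and Ier2 the difference of means was smaller than the larger SD. That SD spans all 6 conditions and does not compare genes within a library. Within libraries, Fos lay above Atf3 in 12 of 20 and Egr1 above Ier2 in 13. Junb lay above Jund in 17 and Dusp1 above Egr1 in 17. Fosb, whose difference from Egr2 was not smaller than the larger SD, lay above Egr2 in 14. Reads were fewest for Egr2 in C3aRKO 1, at 159, and most for Jun in APP-KI 4, at 110044. Egr2 reached 4684 reads, and Ier2 had fewer reads than Egr2 in some libraries (951 against 1306 in C3aR+ APP-KI 3).

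The 10 genes together took between 0.149% of the reads, in APP-KI;C3aRKO 5, and 0.577%, in APP-KI 4. The next highest shares were 0.475% in APP-KI;C3aRKO 1 and 0.428% in C3aR+ WT 1. APP-KI;C3aRKO 5 was the lowest of all 20 libraries for Fos, Fosb, Jun, Junb, Egr1 and Dusp1, and APP-KI 4 was the highest for Fosb, Jun, Jund and Atf3. The ratio of the highest to the lowest library was 43.8 for Egr2 and 9.26 for Atf3. It was 5.03 for Fosb, 4.36 for Jun, 4.15 for Egr1, 3.29 for Fos, 3.27 for Dusp1, 2.66 for Jund, 2.51 for Ier2 and 2.06 for Junb. Egr2 and Atf3 thus varied most and Junb least. The size of the ratio for Egr2 hangs on C3aRKO 1, at 2.34, since the next lowest library, C3aR+ WT 3, was at 8.61.

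**Figure D1:**
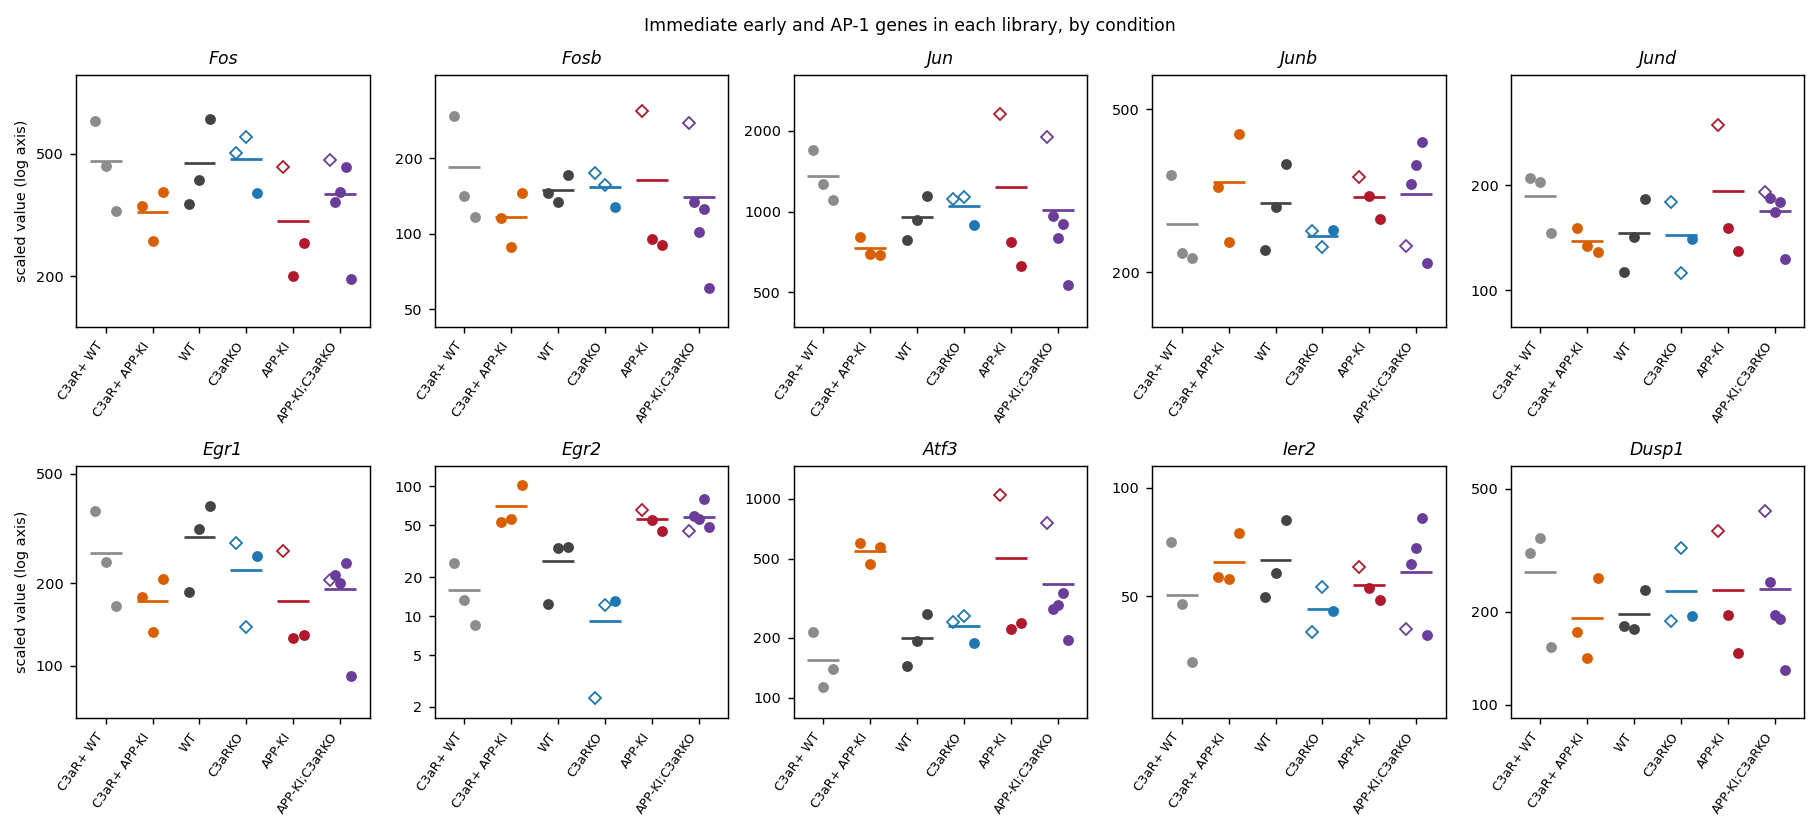
Scaled value (log axis) of each of the 10 genes in the 6 conditions, with 1 point per library, a line at the group mean and open diamonds for the 4 libraries with the fewest genes among the 14 without selection on C3aR. Egr2 lay between 45.2 and 80.6 in all APP-KI;C3aRKO libraries and between 2.34 and 13.2 in C3aRKO, and the 2 highest points of Atf3 and Jun were APP-KI 4 (1048 and 2319.7) and APP-KI;C3aRKO 1 (755 and 1896).

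In C3aR+ microglia, Atf3 and Egr2 were higher in APP-KI than in WT and Jun was lower, and in each of these genes the 3 libraries of one genotype lay apart from the 3 of the other. Such separation was found in 3 of the 10 genes and in 43.5% of all genes tested, so it is no mark of the 10. Fos, Fosb, Junb, Jund, Egr1, Ier2 and Dusp1 overlapped between the genotypes. The signs of the log2 fold changes differed within families. Of the Jun family, Jun (-0.87) and Jund (-0.42) lay below 0 and Junb (0.33) above. Of the EGR genes, Egr2 (2.14) lay above 0 and Egr1 (-0.52) below. The genes were not tested against each other.

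Tests were made with limma on log2(scaled value + 1) for genes whose scaled value averaged at least 1, with the p-value adjusted by Benjamini-Hochberg over all genes tested, and a gene is called when its adjusted p-value is under 0.05. In this comparison 3 of the 10 genes were called, 2 of them higher and 1 lower, where 22.7% of all 12315 genes tested were called, 57.3% of those being higher. The median log2 fold change of the 10 genes was -0.44, with 4 of them above 0, and that of all genes was -0.17, with 38.6% above 0. With the libraries scaled by median ratio in place of the deposited scaling, the median of all genes was -0.03 and 75.3% of the called genes were higher. Changes of the called genes are therefore also given relative to the median gene.

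Atf3 had scaled values of 213, 113 and 140.2 in C3aR+ WT and 597, 472 and 571 in C3aR+ APP-KI. The lowest APP-KI library was above the highest WT library. Atf3 rose from a mean of 156 ± 51.8 to 547 ± 66.4 (mean ± SD, n = 3 each), which gives a log2 fold change of 1.85 (standard error, SE, 0.21, limma, adjusted p = 0.00033), or 2.02 relative to the median gene. The change was 1.93 by edgeR and 1.96 by DESeq2, both run on the recovered reads, and it was called in 16 of 16 alternative analyses, at changes from 1.65 to 2.10.

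Egr2 had scaled values of 25.9, 13.4 and 8.61 in C3aR+ WT and 53.0, 56.1 and 103 in C3aR+ APP-KI. The groups did not overlap, and the third APP-KI library was the highest of all 20. Egr2 rose from 16.0 ± 8.91 to 70.6 ± 27.8 (mean ± SD, n = 3 each), which gives a log2 fold change of 2.14 (SE 0.38, limma, adjusted p = 0.0036), or 2.31 relative to the median gene. It was 2.26 by edgeR and 2.30 by DESeq2. Egr2 was called in 15 of 16 alternatives, all but the adjusted p-value under 0.0005.

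Jun had scaled values of 1706, 1271 and 1104 in C3aR+ WT and 807, 695 and 691 in C3aR+ APP-KI. The highest APP-KI library was below the lowest WT library. Jun fell from 1360.2 ± 311 to 731 ± 66.0 (mean ± SD, n = 3 each), which gives a log2 fold change of -0.87 (SE 0.17, limma, adjusted p = 0.0059), or -0.71 relative to the median gene. It was -0.78 by edgeR and -0.76 by DESeq2, and was called in 15 of 16 alternatives, at changes from -1.01 to -0.70.

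Fos had scaled values of 639, 457 and 326 in C3aR+ WT and 339, 260.0 and 375 in C3aR+ APP-KI, which gives a log2 fold change of -0.51 (SE 0.23, limma, adjusted p = 0.13). Only C3aR+ WT 3 lay within the APP-KI range, and the same library was the lowest WT library for Fosb, Jun, Junb, Jund, Egr1, Egr2, Ier2 and Dusp1. The log2 fold change was -0.56 for Fosb, -0.42 for Jund, -0.52 for Egr1, -0.46 for Dusp1, 0.33 for Junb and 0.36 for Ier2, none of them called. Without C3aR+ WT 3, 7 of the 10 genes were called, with Fos at -0.75 (limma, adjusted p = 0.04), Jund at -0.59 (limma, adjusted p = 0.023), Egr1 at -0.80 (limma, adjusted p = 0.0496) and Dusp1 at -0.82 (limma, adjusted p = 0.044) joining Jun (-1.01), Egr2 (1.80) and Atf3 (1.80). Over all genes that fit called 1777, fewer than the 2797 (22.7% of those tested) with all 6 libraries. C3aR+ WT 3 was the lowest WT library for each of the 4 genes that joined, so leaving it out widens their falls by itself. These 4 calls therefore hang on whether C3aR+ WT 3 is kept.

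**Figure D2:**
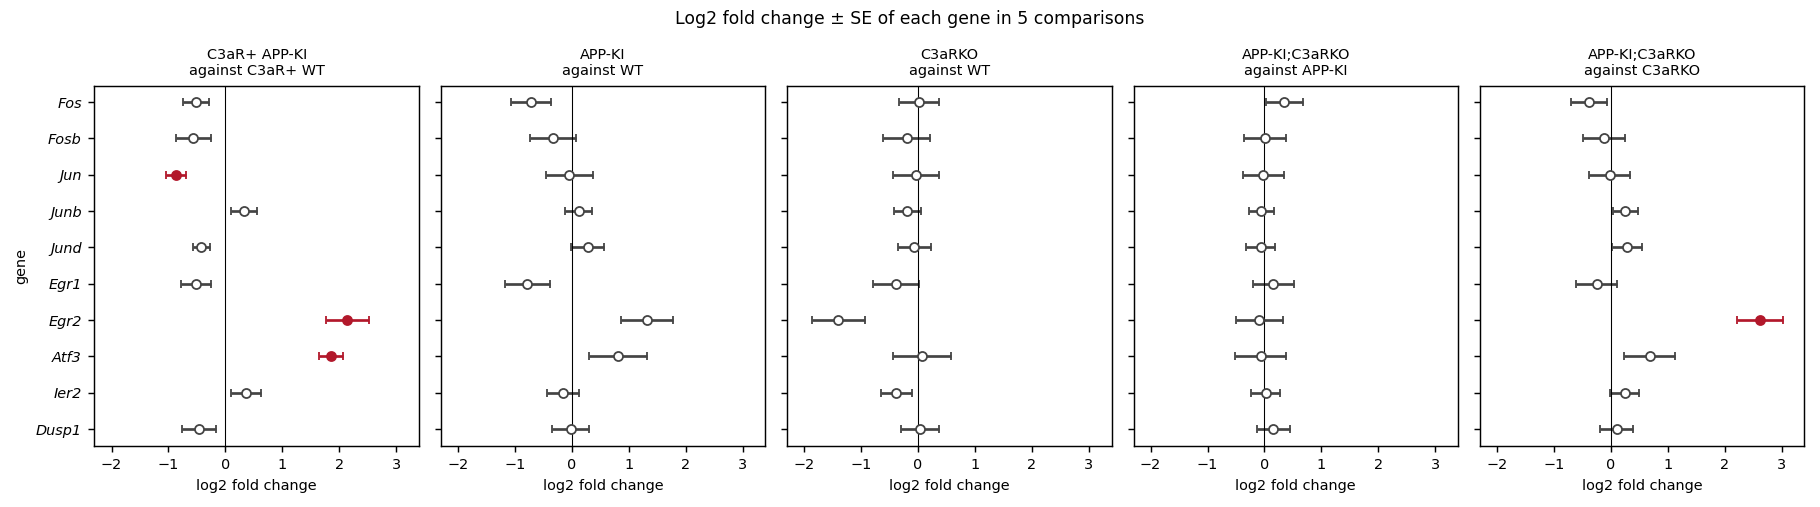
Log2 fold change (horizontal axis, bars of 1 standard error) of the 10 genes in 5 comparisons, with filled points for an adjusted p-value under 0.05 (limma) and open points for the rest. Filled points are Atf3 (1.85), Egr2 (2.14) and Jun (-0.87) for C3aR+ APP-KI against C3aR+ WT and Egr2 (2.62) for APP-KI;C3aRKO against C3aRKO.

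Genes around the pathway were counted in the same comparison, beside the 22.7% called of all genes, 57.3% of them higher, and their median of -0.17. Of 35 further immediate early genes tested, 6 were higher and 5 lower (median 0.10). The largest rises were those of Nr4a3 (2.31), Ier5l (1.98), Gadd45b (1.94), Dusp5 (1.92) and Nfil3 (1.10), and the falls were those of Klf10 (-1.20), Klf2 (-1.15), Cebpd (-1.07), Rhob (-0.54, the most abundant) and Ier5 (-0.40). Of 16 further genes of AP-1 and related factors, 2 were higher, Maff (2.26) and Atf5 (1.98), and 2 lower, Jdp2 (-1.10) and Maf (-0.90), with a median of -0.05. Of 20 genes from MAPK to SRF and CREB, which act before the 10 genes, 4 were higher, Mapkapk2 (1.11), Mapk3 (0.99), Elk3 (0.57) and Map3k1 (0.48), and 2 lower, Rps6ka1 (-0.93) and Mapk14 (-0.56), with a median of -0.07.

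Lists of genes known to respond to dissociation moved in both directions beside Atf3, Egr2 and Jun. Of 13 heat-shock genes, 3 were higher, Hspe1 (1.38), Hspd1 (0.66) and Hsp90ab1 (0.54), and 5 lower, Hspa1b (-1.11), Hspa1a (-1.03), Dnajb1 (-0.75), Hsph1 (-0.74) and Dnaja1 (-0.64), with a median of -0.64. The summed scaled value of this list was 4237, 3669 and 4061 in C3aR+ WT and 3666, 4189 and 4059 in C3aR+ APP-KI, so the groups overlapped. Of 16 inflammatory genes known from microglia handled ex vivo, 11 were higher and 0 lower (limma), with a median of 1.12. The largest were Ccl3 (2.76), Ccl4 (2.00), Il1b (1.96), Cxcl10 (1.86) and Ccrl2 (1.84). Their sum was 1139.8, 1020.2 and 914 in C3aR+ WT and 1972, 2041 and 2562 in C3aR+ APP-KI, without overlap. Whether these genes and Atf3, Egr2 and Jun answered the isolation differently in the 2 genotypes was not tested.

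Markers of cells also moved with these results. Of the 16 markers of microglia, 1 was higher, Trem2 (1.20), and 5 were lower, Tmem119 (-1.45), P2ry12 (-1.04), Cx3cr1 (-0.74), Sall1 (-0.65) and Siglech (-0.52), with a median of -0.24. Of 7 markers of border macrophages, 6 were lower (median -1.53), the largest falls being those of Cbr2 (-2.01), Lyve1 (-1.76) and Stab1 (-1.53, the most abundant). Their sum was 1934, 2118 and 1841 in C3aR+ WT and 979, 631 and 579 in C3aR+ APP-KI. Of 6 endothelial markers tested, Flt1 was higher (3.75) and Pecam1 lower (-2.09), with a median of -0.84, of 7 astrocyte markers Gfap was higher (2.58) and Slc1a3 lower (-0.55), with a median of -0.12, and of 5 oligodendrocyte markers Mbp was higher (1.07), with a median of 0.58. Of 7 monocyte and neutrophil markers and of 1 neuronal marker tested, 0 were called by limma, with medians of 0.10 and -1.17, and 0 of 7 T and NK cell markers had a mean high enough to be tested. Over the 20 libraries the sums lay between 212 and 403 for astrocytes (Slc1a3 most abundant), 107 and 229 for oligodendrocytes (Mbp), 54.7 and 353 for endothelium (Flt1), 30.0 and 411 for monocytes and neutrophils (S100a9), 0.0679 and 30.2 for neurons (Rbfox3) and 0.113 and 27.6 for T and NK cells (Gzma). Cldn5 and Cdh5, which define endothelium, were at 0 in some libraries. Cells were sorted as CD45mid and CD11b+, a gate that would remove cells without these proteins, such as neurons, astrocytes, oligodendrocytes and endothelium, and cells with high CD45, as monocytes, lymphocytes and border macrophages usually have. The part of these cells in the results for the 10 genes was not tested.

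In microglia without selection on C3aR, Egr2 was higher in each APP-KI library than in each WT library, and the other 9 genes overlapped between the groups. Of all genes tested, 29.3% did not overlap, so 1 of 10 is not more than usual here. Egr2 had scaled values of 12.3, 33.6 and 34.4 in WT and 66.2, 55.1 and 45.6 in APP-KI. WT 4 was the lowest and APP-KI 4 the highest. The means were 26.7 ± 12.5 and 55.6 ± 10.3 (SD, n = 3 each). Atf3 had 145, 193 and 264 in WT and 1048, 221 and 237 in APP-KI, where APP-KI 4 alone lay above the WT range.

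None of the 10 genes was called by limma in the fit of these 14 libraries, with the library series as a term, where 2.22% of all 12410 genes were called higher and 1.93% lower. The count was 1, Egr2, at an unadjusted p under 0.05 (12.4% of all genes), and it was 0 by edgeR (3.30% of all) and 0 by DESeq2 (5.81%). The median log2 fold change was -0.03 for the 10 genes and -0.01 for all genes. For Egr2 it was 1.32 (SE 0.46, limma, adjusted p = 0.17), with 2.21 in the series of WT 4 (2 libraries against 1) and 0.42 in the other (1 against 2). Jun was at -0.04 (SE 0.41), with 0.77 and -0.71 in the same 2 series, Atf3 at 0.81 (0.51), Fos at -0.71 (0.35) and Egr1 at -0.78 (0.40). Fosb was at -0.33, Junb at 0.12, Jund at 0.28, Ier2 at -0.15 and Dusp1 at -0.02.

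Without the 4 libraries with the fewest genes, which left 2 APP-KI libraries against 3 of WT, Egr2 was called higher in APP-KI, with a log2 fold change of 1.08 (SE 0.35, limma, adjusted p = 0.0495), and Atf3 was at 0.27. With APP-KI 6 alone against WT, Egr2 was at 0.66. Egr2 was called in 0 of the 14 fits that left out 1 library, at changes from 0.87 to 1.78, and the 1 call came from a choice of libraries made after the data were seen. Counts over all genes moved as well, from 514 with all libraries to 3510 without the 4, to 218 without WT 4 and to 837 without APP-KI;C3aRKO 1.

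Lists around the pathway were counted here beside the 4.14% of all genes called. Tested were 16 further AP-1 genes, 35 further immediate early genes, 20 from MAPK to SRF, 13 heat-shock and 16 ex vivo inflammatory genes. By limma, 1 of the further AP-1 genes was higher, Maff (2.50), and 1 lower, Maf (-1.26), with a median of -0.14, and of the further immediate early genes Npas4 was higher (2.73) and Cebpd lower (-1.33), with a median of 0.11. Rps6ka1 (-1.02) and Mapk14 (-0.87) were lower among the genes from MAPK to SRF (median -0.11), and 0 heat-shock genes were called (median 0.11). Ccl3 (2.64), Ccl4 (1.76) and Cd83 (1.48) were higher among the ex vivo inflammatory genes (median 0.53). Beside these, 2 microglial markers were lower, Sall1 (-0.94) and Siglech (-0.70), with a median of -0.50, and 3 of 7 border macrophage markers were lower, Mrc1 (-1.69), Stab1 (-1.65) and F13a1 (-1.38), with a median of -1.38. Of 6 endothelial markers tested, Flt1 was higher (4.26), 3 lay above 0, and the median was 0.32. The sum of border macrophage markers was 1807, 2976 and 2659 in WT and 883, 663 and 759 in APP-KI, without overlap, with Pf4 at 0 in APP-KI 4, and its part was not tested.

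In the fit of the 14 libraries, loss of C3ar1 left all 10 genes without a call, in WT and in APP-KI mice alike. Egr2 had scaled values of 2.34, 12.1 and 13.2 in C3aRKO against 12.3, 33.6 and 34.4 in WT. C3aRKO 1 was the lowest of all 20 libraries, and C3aRKO 3 lay above WT 4. Jun had 1119.6, 1135 and 892 in C3aRKO and Fos 503, 567 and 374, all within their WT ranges, with WT values of 785, 934 and 1141 for Jun and 344, 411 and 647 for Fos.

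For C3aRKO against WT, 0 of the 10 genes were called by limma, where 0.00806% of all genes, C3ar1 alone, were called. At an unadjusted p under 0.05 there was 1, Egr2 (2.77% of all genes), and there were 0 by edgeR (0.00806%) and 0 by DESeq2 (0.0725%). Egr2 had a log2 fold change of -1.40 (SE 0.46, limma, adjusted p = 0.99), and it was below 0 in both series (2 libraries against 1 and 1 against 2). With C3aRKO 3 as the only C3aRKO library it was -0.98 without the 4 libraries with the fewest genes and -1.06 without these and APP-KI 5, at the spread of the other groups. The other 9 lay between -0.39 (Egr1) and 0.07 (Atf3), and the median was -0.13 for the 10 genes and -0.03 for all. The number of genes called over all genes hung on 1 library, with 21 without C3aRKO 3 and 0 without WT 4. This comparison and that of APP-KI against WT share the 3 WT libraries.

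For APP-KI;C3aRKO against APP-KI, Egr2 had scaled values of 45.2, 59.7, 55.7, 80.6 and 48.8 against 66.2, 55.1 and 45.6, and the groups overlapped. The same was true of the other 9 genes, where 1.61% of all genes did not overlap. By limma 0 of the 10 were called, where 0.00806% of all genes were, again C3ar1. There were 0 at an unadjusted p under 0.05 (1.18% of all genes), and 0 by edgeR and 0 by DESeq2 (0.00806% of all by each). The log2 fold changes ran from -0.09 for Egr2 (SE 0.41) to 0.35 for Fos (SE 0.32), with a median of 0.00 and of -0.03 for all genes. For Egr2, 2 standard errors to either side reached from -0.92 to 0.73, so a change of that size in either direction is not told apart from none. Without the 4 libraries with the fewest genes 0 of the 10 were called by limma, with Egr2 at 0.15 and Fos at 0.47 (4 libraries against 2), and with APP-KI 6 alone they were at 0.56 and 0.41. A fit of only the 2 groups with the replicate number as a block called Fosb, at -0.97 (limma, adjusted p = 0.026). Only replicate numbers 4 and 5 occur in both groups, so this value rests on 2 differences. Of these libraries, APP-KI 4 and APP-KI 5 are in the series of WT 4. APP-KI;C3aRKO 4 and APP-KI;C3aRKO 5 are in the other, so genotype and series cannot be told apart in that fit. Replicate numbers were not shown to pair samples.

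Within mice that lack C3ar1, Egr2 was higher with APP-KI, and the other 9 genes were not called. Its values of 45.2, 59.7, 55.7, 80.6 and 48.8 in APP-KI;C3aRKO lay above the 2.34, 12.1 and 13.2 of C3aRKO. Every APP-KI;C3aRKO library was above every C3aRKO library, a separation found in 1 of the 10 genes and 13.7% of all, and C3aRKO 1 was far below the other 2. Jun had 1896, 960.5, 796, 899 and 532 in APP-KI;C3aRKO, on both sides of its C3aRKO values, and Fos had 478, 349, 376, 454 and 196.

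For APP-KI;C3aRKO against C3aRKO, 1 of the 10 genes was called higher and 0 lower by limma, where 3.96% of all genes were called higher and 2.97% lower. The count for the 10 was 1 by edgeR (5.28% of all genes), 1 by DESeq2 (9.20%) and 1 at an unadjusted p under 0.05 (20.4%). Egr2 rose from 9.21 ± 5.97 (SD, n = 3) to 58.0 ± 13.9 (SD, n = 5), which gives a log2 fold change of 2.62 (SE 0.41, limma, adjusted p = 0.0011). It was 3.00 in the first of the 2 series (2 libraries against 2) and 2.11 in the other (3 against 1). With C3aRKO 3 as the only C3aRKO library it was 2.21 without the 4 libraries with the fewest genes and 2.27 without these and APP-KI 5. Egr2 was called in 14 of 14 fits that left out 1 library, at changes from 2.05 to 3.01. Atf3 was at 0.68 (SE 0.45) and Fos at -0.38, and the remaining genes lay between -0.25 and 0.28, none of them called. The median was 0.17 for the 10 genes and -0.03 for all. Over all genes the count moved from 860 to 1397 without APP-KI;C3aRKO 1.

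The lists were counted here beside the 6.93% of all genes called, over as many genes tested as for APP-KI against WT. Further AP-1 genes had Maff higher (1.91) and Maf lower (-0.96), with a median of -0.01. Further immediate early genes had Ier5l (1.89) and Id2 (0.96) higher and Cebpd lower (-1.10), with a median of 0.01. Rps6ka1 (-1.04) and Mapk14 (-0.54) were lower in the list from MAPK to SRF (median -0.13). By limma 0 heat-shock genes were called (median 0.16), and Ccl3 (2.97), Ccl4 (1.66) and Cd83 (1.65) were higher among the ex vivo inflammatory genes (median 0.22). Of 16 microglial markers Trem2 was higher (1.07) and Siglech lower (-0.69), with a median of -0.34. Of 5 oligodendrocyte markers tested Mbp was higher (1.06) and was the only 1 above 0 (median -0.33), and of 6 endothelial markers Flt1 was higher (3.80; median 0.31). Of 7 border macrophage markers Stab1 (-1.71), Mrc1 (-1.19) and F13a1 (-0.97) were lower, with a median of -0.97, and of 7 monocyte and neutrophil markers Ccr2 was lower (-1.43), with a median of -0.18. Border macrophage markers summed to 1968, 1509 and 2609 in C3aRKO and to 745, 683, 889, 761 and 584 in APP-KI;C3aRKO, and their part in the rise of Egr2 was not tested.

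Whether the effect of APP-KI on the 10 genes differed with C3ar1 was asked as an interaction over the 14 libraries. None of the 10 was called by limma, where 0% of all genes were. There were 0 at an unadjusted p under 0.05 (1.64% of all genes), 0 by edgeR (0%) and 0 by DESeq2 (0.00806%). Egr2 had the value 1.30 (SE 0.63, limma, adjusted p = 1.00). Without the 4 libraries with the fewest genes C3aRKO has 1 library, and the interaction is not given for that set. The median was 0.17 for the 10 genes and -0.01 for all. The interaction draws on all 4 genotypes and so shares its libraries with each of the preceding comparisons of these mice.

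C3aR+ microglia were set against microglia without that selection in the 12 libraries that came from WT or APP-KI mice. For C3aR+ WT against WT, 0 of the 10 genes were called by limma, where 0% of all 12592 genes were, with 0 at an unadjusted p under 0.05 (4.38% of all genes), 0 by edgeR (0%) and 0 by DESeq2 (0.287%). A fit of only these 2 groups called 96 of all genes and 0 of the 10. The values ran from -0.71 for Egr2 (SE 0.42) to 0.51 for Jun (SE 0.37), with a median of -0.08 and of -0.02 for all genes. For C3aR+ APP-KI against APP-KI, 0 were called by limma, where 0% of all genes were, with 0 at an unadjusted p under 0.05 (5.22% of all genes), 0 by edgeR (0%) and 0 by DESeq2 (0.223%). The values ran from -0.51 for Jun to 0.51 for Atf3, with a median of 0.07 and of -0.03 for all genes. Without the 4 libraries with the fewest genes, of which APP-KI 4 alone is in these comparisons, 0 of the 10 were again called by limma in either, where 12 of all genes were called in C3aR+ WT against WT and 0 in C3aR+ APP-KI against APP-KI. Sort, reporter allele and library series cannot be told apart in either.

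The difference between the effect of APP-KI in C3aR+ microglia and in all sorted microglia was called by limma for 0 of the 10 genes, where 0% of all genes were called, with 0 at an unadjusted p under 0.05 (11.8% of all genes), 0 by edgeR (0%) and 0 by DESeq2 (0.956%). It was -1.02 for Jun (SE 0.53, limma, adjusted p = 0.46), 1.00 for Egr2 (0.60), 0.89 for Atf3 (0.66) and -0.75 for Jund (0.38), with a median of 0.20 for the 10 genes and -0.02 for all. Without APP-KI 4 it was again called by limma for 0 of the 10 and for 0 of all genes. The fall of Jun and the rise of Atf3 in C3aR+ APP-KI microglia are therefore not shown to belong to C3aR+ cells. In these 3 comparisons, in the interaction, and for both effects of losing C3ar1, 0 genes of any list of the pathway, of dissociation or of cell markers were called by limma.

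The 2 libraries with the highest share of reads on the 10 genes, APP-KI 4 and APP-KI;C3aRKO 1, also stood out in other measures. Jun was at 2319.7 and 1896 in them, where the highest of the other 18 libraries was at 1706, and Atf3 was at 1048 and 755, where the highest of the others was at 597. Dusp1 was at 364 and 424, where the highest of the others was at 346. Fosb was at 307 and 277, with C3aR+ WT 1 between them at 294, and Jund at 298, the highest of all, and 192. Fos, at 454 and 478, was within the range of the others, and so were Egr1, at 261 and 206, and Junb, at 342 and 231. The heat-shock genes summed to 5556 and 5897, where the other 12 libraries without selection had at most 4759.5, and the microglial markers to 17344 and 14369.6. C3aRKO 1 and C3aRKO 2, which also had few genes with at least 10 reads, had heat-shock sums of 3694 and 3556 and sums over the 10 genes of 2978 and 2982, within the range of the others. What set the 2 libraries apart was not tested.

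**Figure D3:**
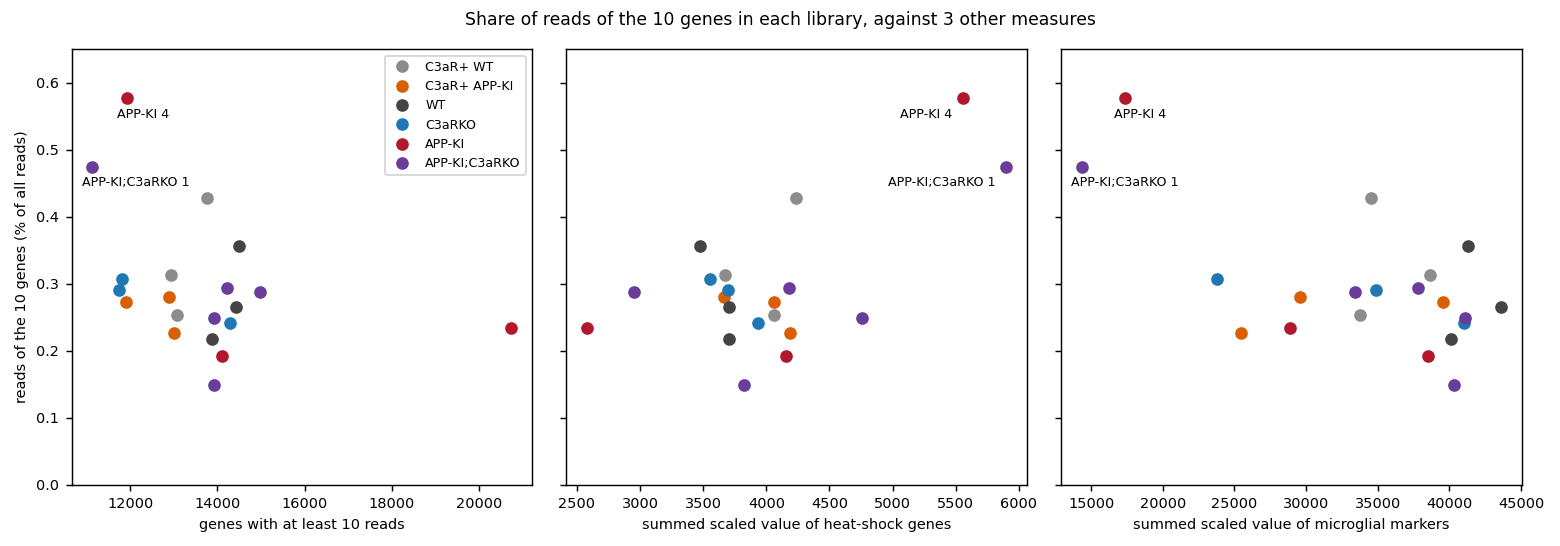
Share of reads on the 10 genes (vertical axis, %) against the number of genes with at least 10 reads, the summed scaled value of 13 heat-shock genes and that of 16 microglial markers, with 1 point per library. APP-KI 4 (0.577%, 5556 and 17344) and APP-KI;C3aRKO 1 (0.475%, 5897 and 14369.6) lie at the right in the heat-shock panel and at the left in the microglial panel.

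To see how the 10 genes varied between libraries of the same condition, each log2 value was taken as its deviation from the mean of its condition. Pearson's r between 2 of the 10 genes was above 0 in 45 of 45 pairs, from 0.15 (Jund and Egr2) to 0.96, with a median of 0.63 over the 20 libraries. Without the 4 libraries with the fewest genes and APP-KI 5, it ran from 0.40 to 0.97, with a median of 0.82. Over all pairs of the 8854 genes whose scaled value averaged at least 10, the median was 0.00 in both sets of libraries, with 50.2% and 50.3% of pairs above 0, and 9.49% and 1.16% of them above the median of the 10 genes. Conditions without selection on C3aR hold more than 1 library series each. With deviations taken within condition and series (17 libraries) the 45 pairs ran from -0.05 to 0.97, with a median of 0.67, where 7.01% of all pairs lay higher. Against the mean of the other 9 genes, r was 0.92 for Fos, 0.86 for Fosb, 0.82 for Jun, 0.81 for Egr1, 0.80 for Atf3, 0.78 for Jund, 0.77 for Dusp1, 0.60 for Junb, 0.59 for Ier2 and 0.39 for Egr2. In the 15 libraries Egr1 (0.98), Fos (0.97), Ier2 (0.96) and Junb (0.92) were the closest, and Dusp1 (0.73) and Egr2 (0.79) the least close. The 10 genes thus varied together between libraries of 1 condition more than most pairs of genes did, with Egr2 the least tied to the rest over all 20, and what they varied with was not tested.

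Among the other 8844 of these genes, those nearest to the mean of the 10 genes by the same r over the 20 libraries were Nfkbiz (0.95), Nfkbid (0.93), Btg2 (0.92), Zfp36 (0.90), Plk2 (0.90), H3f3b (0.89), Ppp1r15a (0.89), Adamts1 (0.86), Klf4 (0.86) and Gem (0.86). Of these, 4 belong to the immediate early list and 2 to the ex vivo inflammatory list, and 0 to the heat-shock list. Without the 4 libraries and APP-KI 5 the values were 0.94, 0.95, 0.91, 0.85, 0.90, 0.84, 0.88, 0.85, 0.89 and 0.78, and 4 of the 10 were again among the nearest 10. These libraries chose the genes, so the r values describe them and do not test them.

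The relation of each of the 10 genes to the number of genes with at least 10 reads was looked at in the 9 libraries that lay together in that number. Pearson's r ran from 0.22 to 0.71 and was highest for Dusp1 (exact permutation, adjusted p = 0.20 over the 10 genes). Spearman's rho ran from 0.17 to 0.83 and was highest for Jun (exact permutation, adjusted p = 0.083). These 9 come from 2 library series and all 4 genotypes, which the permutation ignores. The 2 libraries farthest from the median are those of one series, and the 7 of the other gave r from -0.43 to 0.87, highest for Fosb (exact permutation, adjusted p = 0.083), and rho from -0.64 to 0.89 (smallest adjusted p = 0.062 by exact permutation). No relation passed an adjusted p-value under 0.05. Over all 14 libraries the number falls into separate sets, and no r is given for them.

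The positions of the 10 genes in mm10 were compared with other genes for shared exon sequence, since reads there may be counted for either gene. Exons of Junb share 173 bp with those of Prdx2 on the other strand, and exons of Dusp1 share 11 bp with those of Ergic1. Jun shares 232 bp with Junos and Jund 877 bp with Gm11175, both without a value in these data. Whether the reads were counted by strand is not stated.

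Promoters were read in the RefSeq annotation of GRCm38.p6 for 8 of the 10 genes, in 12 entries of 250 bases before and 50 after a transcription start. Egr1 and Ier2 have no entry. The AP-1 site TGANTCA, searched on both strands as all motifs were, was found in none of the 12, where 7.81% of 32851 promoters of the same length hold it. The CRE, TGACGTCA, which ATF and CREB proteins bind, was found in Dusp1 at -143 (1.79% of all promoters), and its core TGACG, which is contained in the CRE, was found in 8 of the 12 entries, of 6 genes (20.8% of all). The CArG box, which SRF binds, was found in Egr2 as 2 different boxes, 1 of them shared by 3 overlapping entries and the other in 1 further entry of the 5 (1.63% of all promoters). The EGR site GCGNGGGCG was found in Fosb at -50 (5.55% of all). Each motif was searched as a fixed pattern and only in these bases, so variants of a motif and sites farther away were not counted. The entry of Jund, at chr8:70697489-70697788, ends before the start of the gene by its position in mm10, 70698949. A match is a description of sequence and shows no binding, and the lack of a match does not show that a gene has no such site.

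The bases before the start are printed for the 3 genes called in C3aR+ microglia, with capitals for the CArG box and the CRE core, read in the direction of transcription. The sequence of Atf3 is on the minus strand at chr1:191183334-191183583 and holds the core at -7. The printed sequence of Egr2 is on the plus strand at chr10:67537619-67537868 and holds the CArG box at -72 and the core at -111 and -55. That of Jun is on the minus strand at chr4:95052223-95052472 and holds no match to the fixed patterns searched.

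Atf3: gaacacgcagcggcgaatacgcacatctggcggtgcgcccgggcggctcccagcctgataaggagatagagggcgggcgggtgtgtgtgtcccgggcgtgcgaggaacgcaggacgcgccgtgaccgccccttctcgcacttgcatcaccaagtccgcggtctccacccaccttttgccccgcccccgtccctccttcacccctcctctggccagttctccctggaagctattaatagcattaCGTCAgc
Egr2: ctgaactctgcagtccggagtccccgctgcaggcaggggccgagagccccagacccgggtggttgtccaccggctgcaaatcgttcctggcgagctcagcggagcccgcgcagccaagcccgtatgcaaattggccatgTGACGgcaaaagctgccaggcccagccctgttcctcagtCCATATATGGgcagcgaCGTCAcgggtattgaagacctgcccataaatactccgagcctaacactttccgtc
Jun: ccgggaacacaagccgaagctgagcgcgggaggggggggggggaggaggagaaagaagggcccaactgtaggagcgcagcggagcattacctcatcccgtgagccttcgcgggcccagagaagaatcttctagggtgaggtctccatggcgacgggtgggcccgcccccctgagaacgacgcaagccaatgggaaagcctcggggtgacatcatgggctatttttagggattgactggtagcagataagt

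In the libraries at hand Egr2 was the gene of the 10 that followed APP-KI most widely, called in C3aR+ microglia and in mice without C3ar1 and higher without a call in the remaining pair. Atf3 and Jun were called in C3aR+ microglia alone. Losing C3ar1 came with no call among the 10 genes in the fit of the 14 libraries, at 3 to 5 libraries per group. All values are of RNA and not of protein or of DNA binding by AP-1, every library passed through the same isolation, and the 10 genes are the kind it acts on, so none of these levels can be taken as that of the undisturbed brain. Libraries of C3aR+ cells differ from the rest in sort, reporter allele and series at once. Groups are small, and some results moved when 1 library was left out.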

How the data were processed

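RNA of sorted microglia was measured in 20 libraries of 6 conditions, and conditions and replicate numbers were taken from the sample labels. The libraries were made with a total RNA kit for small inputs that carries unique molecular identifiers, and whether these were collapsed is not stated. The authors aligned the reads to mm10 with TopHat 2.0.9 and compared groups with DESeq2. The values deposited by the authors are named fpkm in the file but are a signal, in which the reads of a gene are divided by the 75th percentile of the reads per gene in its library and not by gene length. Multiplied by 1 number per library, 100.0% of the values in each library came to whole reads (within 0.1 reads), and so reads were recovered, between 13939559 and 76608464 per library. The alignment and the counting are the authors' work and were not repeated.

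Values were multiplied by 35.2 and tested as log2(scaled value + 1) in R 4.3.3 by limma 3.58.1 with its trend option, for genes whose scaled value averaged at least 1 in the fitted libraries. The pseudocount of 1 makes the log2 fold change of low genes smaller than it is. P-values were adjusted by Benjamini-Hochberg over all genes tested, and adjusted p-values come from limma where no other tool is named. The 6 C3aR+ libraries were fitted alone, the 14 others together with a term for the series that the library numbers show, and the 12 WT and APP-KI libraries of both sorts without one. Levels per kb used exon lengths of GENCODE vM21, which also gave the positions, and promoters came from RefSeq (GRCm38.p6). Other steps ran in Python 3.11.15 (scipy 1.17.1, pandas 2.3.3, numpy 2.4.6). Replicates of a condition differed by more than counting noise in each of 25 pairs (chi-square over its degrees of freedom 20.8 or more).

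The 10 genes and the lists were chosen with earlier results of these data known. The lists were further AP-1 and related genes, further immediate early genes, genes from MAPK to SRF and CREB, heat-shock genes, ex vivo inflammatory genes, and markers of microglia, border macrophages, monocytes and neutrophils, T and NK cells, endothelium, astrocytes, oligodendrocytes and neurons. Named are the 10 genes, of each list the called genes, at most the 5 with the largest change each way, and the most abundant, and the 10 genes nearest to the mean of the 10 by Pearson's r. Those printed in the report were picked from these after their values were seen. No test was made on a list as a whole.

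Alternatives tried were 0.1 as pseudocount, a filter at an average of 5 or none, median ratio scaling, quantile normalization, limma without a trend, edgeR 4.0.16 (quasi-likelihood) and DESeq2 1.42.0 on recovered reads, an adjusted p-value under 0.0005, only the 2 groups compared, the series term left out or added, the replicate number as a block in a fit of only the groups compared without the series term, and each library left out in turn. Leaving out the 4 libraries with the fewest genes, or these and APP-KI 5, was added after the data were seen, as were deviations within library series and the r of all pairs of genes. The design was written for normalized values and was kept. A relation of each of the 10 genes to the number of genes found was planned over the 14 libraries. Since that number falls into separate sets, it was replaced by 9 libraries, with exact permutation of all orders.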

Additional observations from a re-analysis of the deposited data

Results flagged for a closer look

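In each of 17 groups of values a test looked for 1 library far from the rest of APP-KI;C3aRKO, the condition with 5 libraries, by the gap to the next library over the range, at a level that chance passes in 1 of 20. Egr1 in APP-KI;C3aRKO 5 had the lowest value, 92.1 against 200.0 to 236 in the others (gap over range 0.748). Atf3 in APP-KI;C3aRKO 1 had the highest, 755 against 196 to 338 (0.744). The sum of microglial markers in APP-KI;C3aRKO 1 was the lowest, 14369.6 against 33426 to 41072 (0.714). All 3 were kept in the tests.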

How the results depend on the processing

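Over all alternatives, 2281 of 2290 values of the 10 genes stayed on the same side of the threshold, and 212 changed sign, 0 of them for a gene that the report gives as called in that comparison over all its libraries. In C3aR+ microglia 3 genes were called, 1 at an adjusted p-value under 0.0005 (Atf3) and 7 without C3aR+ WT 3. Over all genes the counts in these fits were 2797, 267 and 1777. For APP-KI against WT the count went from 0 to 1 without the 4 libraries with the fewest genes, and for APP-KI;C3aRKO against C3aRKO from 1 to 0 at 0.0005. For APP-KI;C3aRKO against APP-KI it was 0 in a fit of only these 2 groups, with Fosb at 0.11, and 1 when that fit also held the replicate number as a block, with Fosb at -0.97 (adjusted p = 0.026 from limma) and 446 genes called, against 1 in the fit of 14 libraries. The replicate numbers were not shown to pair samples, since r between deviations of the same number was from -0.31 to 0.25. Only numbers 4 and 5 are shared by APP-KI and APP-KI;C3aRKO, and their libraries lie in different series in the 2 groups. In the fit with the block, genotype and series therefore cannot be told apart. Fosb, at 0.01 in this comparison, was at -0.02 with quantile normalization, -0.06 by edgeR, -0.05 by DESeq2, -0.16 without the series term, 0.46 without APP-KI 4, -0.35 without APP-KI 5, -0.12 without APP-KI 6, -0.26 without APP-KI;C3aRKO 1 and -0.05 without APP-KI;C3aRKO 4. Over all genes, at 0.0005 the counts were 267 in C3aR+ microglia, 75 for APP-KI against WT and 139 for APP-KI;C3aRKO against C3aRKO, which gave 443 with only its 2 groups and 139 when the block was added to these. DESeq2 called 9 genes for C3aRKO against WT and, for the comparisons without a call in limma, 1 in the interaction, 36 for C3aR+ WT against WT, 28 for C3aR+ APP-KI against APP-KI and 120 for their difference. With only the 2 groups, C3aR+ WT against WT gave 96. Why these values moved was not tested.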
